A study of Mus musculus with 6 samples.

Results

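The 10 genes described here make, bind, link, cut or sense hyaluronan: the hyaluronan synthases Has1, Has2 and Has3, the hyalectans Versican (Vcan) and Aggrecan (Acan), the link proteins Hapln1 and Hapln3, the hyaluronidases Hyal1 and Hyal2, and the receptor Cd44. They were taken by name from the 23107 genes of the deposited count table, and all 10 were listed and passed the minimum count. Hyaluronan is a very long, unbranched sugar polymer that holds water in connective tissue and fills the endocardial cushions from which the valves form. The synthases extrude it through the plasma membrane, the hyalectans, which carry chondroitin sulfate chains, bind it outside the cell, and the link proteins fasten the hyalectans to it. In the mature aortic valve this proteoglycan-rich matrix is best known from the spongiosa, the soft middle layer of the leaflet.

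The genes were read in 6 libraries of aortic valve RNA from mice aged 4 months on an outbred background. The 3 mutant libraries carried a Cre-activatable, constitutively active Acvr1 transgene (caAcvr1) together with Nfatc1Cre, a Cre knock-in at the Nfatc1 locus that recombines in the endocardium, its valve mesenchyme and cells of the leaflet-wall junction. The 3 control libraries are labelled wild type, whereas the study's methods allow mice with either transgene alone or with neither as controls, so the genotype of each control library is not known here. The study's methods speak of independent samples in each assay in general, but neither source says how many mice went into a library or whether each library came from separate mice, so that the p-values measure the spread between these libraries only. Totals ran from 32218345 to 55728852 counts per library. Levels are given as CPM, counts scaled to a common library size after TMM normalization, and per kilobase of exon where genes are compared with each other. Acvr1 itself had a mean of 58.9 ± 9.2 CPM in control and 54.7 ± 4.28 CPM in mutant libraries (SD, n = 3 each), in a row that does not separate transgene from endogenous reads.

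Control replicate 2 stood apart from the other libraries in its markers of tissue around the leaflet. Its summed mesothelial markers (Msln, Upk3b, Wt1 and Lrrn4) reached 981 CPM against 88 to 442 CPM in the other libraries, and its smooth muscle markers 13460 CPM against 2272 to 6107. Its cardiac muscle markers were the lowest, at 9529 CPM against 16346 to 36155. Values without this library are given for each of the 10 genes. In whole valve tissue, fewer cells of one type and less RNA per cell cannot be told apart.

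The genome places 6 of the 10 genes in neighbouring pairs (GRCm38). Vcan (chr13:89655312-89742509, minus strand) and Hapln1 (chr13:89539796-89611652, plus strand) are separated by 43659 bases with 0 protein-coding genes between them. Acan (chr7:79053483-79115099, plus strand) and Hapln3 (chr7:79115102-79131018, minus strand) run towards each other and end 2 bases apart. Hyal2 (chr9:107567945-107572779) and Hyal1 (chr9:107576927-107581710) lie in tandem on the plus strand, 4147 bases apart. The synthases are scattered, with Has1 at chr17:17843323-17855205, Has2 at chr15:56665627-56694539 and Has3 at chr8:106870242-106884566, and Cd44 lies at chr2:102811141-102901665. Exons of Hyal1 overlap those of Hyal3 and Naa80 on the same strand, Has3 overlaps Chtf8 on the other strand, and Has2 overlaps the antisense transcript Has2os. Has2os and Naa80 had no row in the count table, so that reads in the shared stretches of Has2 and Hyal1 may include theirs, and the sources used here do not say whether the counting used strand. Reads shared with Hyal3 or Chtf8, which were counted, could have gone to either gene.

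The 250 bases upstream of the RefSeq start are shown for 3 genes: Has1, the one gene whose groups separated, and the 2 hyalectans, for comparison. The sequences are from RefSeq on build GRCm38.p6, 5′ to 3′ on the gene's own strand, and capitals mark matches to the GC box (GGGCGG), the TATA box (TATAAA), the Sox core (ACAAT) or the GC-rich element bound by BMP Smads (GGCGCC), searched on both strands. The Has1 window is chr17:17855189-17855438, the Vcan window chr13:89742513-89742762 and the Acan window chr7:79052976-79053225. The last bases of the Has1 window lie within the gene as GENCODE annotates it, which ends at 17855205.
Has1: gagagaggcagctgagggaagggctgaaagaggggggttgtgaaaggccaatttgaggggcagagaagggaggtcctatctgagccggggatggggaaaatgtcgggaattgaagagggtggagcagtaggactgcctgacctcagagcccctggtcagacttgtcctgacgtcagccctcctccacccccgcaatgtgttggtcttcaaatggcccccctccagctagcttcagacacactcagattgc
Vcan: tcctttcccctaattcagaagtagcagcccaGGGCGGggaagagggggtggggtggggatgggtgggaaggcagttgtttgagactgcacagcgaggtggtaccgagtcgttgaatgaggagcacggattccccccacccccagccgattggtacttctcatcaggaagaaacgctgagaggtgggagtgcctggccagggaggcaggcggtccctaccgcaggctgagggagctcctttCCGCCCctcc
Acan: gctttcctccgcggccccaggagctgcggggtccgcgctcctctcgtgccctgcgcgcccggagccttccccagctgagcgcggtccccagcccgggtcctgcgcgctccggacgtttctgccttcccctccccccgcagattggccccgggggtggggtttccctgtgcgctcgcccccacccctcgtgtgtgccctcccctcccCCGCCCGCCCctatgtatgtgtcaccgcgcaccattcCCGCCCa

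The Has1 window held 0 matches to these 4 motifs, the Vcan window 2 GC boxes and the Acan window 3 GC boxes, of which the first and second overlap. GC content was 58.0% for Has1, 62.4% for Vcan and 74.4% for Acan, against a median of 52.4% over 32851 RefSeq promoter windows of the same length. Windows were at hand for 8 of the 10 genes, all but Has2 and Has3. Of these 8, the GC box was present in 4 (32.7% of all windows), the Sox core in 2 (27.7%), the TATA box in 1 (12.4%) and the Smad element in 0 (9.6%). A match is a run of letters and not a measured binding site, and its absence from a window says nothing about the factor.

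In the control libraries, the hyaluronidases, Hapln1 and Cd44 were more abundant per kilobase than any of the synthases or hyalectans. The order is that of the whole sample and not of the leaflet alone. Cardiac muscle markers summed to 9529 to 29674 CPM in the controls, and interstitial cell and fibroblast markers to 11562 to 12690 CPM. Per kilobase of exon, Hyal2 was the highest of the 10 genes at 42.7 ± 1.65 CPM per kilobase (SD, n = 3), above 91.7% of the genes tested. Hapln1 (15.9 ± 2.82), Hyal1 (13.4 ± 4.32) and Cd44 (12 ± 0.674) formed a second tier, whose neighbours in this order had overlapping ranges between the control libraries. Vcan (2.35 ± 0.462), Has2 (1.49 ± 0.424), Acan (1.43 ± 1.18) and Has1 (1.2 ± 0.334) followed, and neighbours overlapped here too. Hapln3 (0.233 ± 0.111) and Has3 (0.196 ± 0.0889) were lowest and did not differ beyond their spread. In all 6 libraries Hyal2 lay above Hapln1, Cd44 above Vcan, and Has1 above Hapln3. The mutants kept this order except in the last 2 places, which Has3 (0.164 ± 0.0324) and Hapln3 (0.156 ± 0.0845) exchanged within overlapping ranges. These levels depend on the exon length of the annotation, which for Vcan (14462 bases over all isoforms) is longer than any one of its shorter splice forms.

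**Figure D1:**
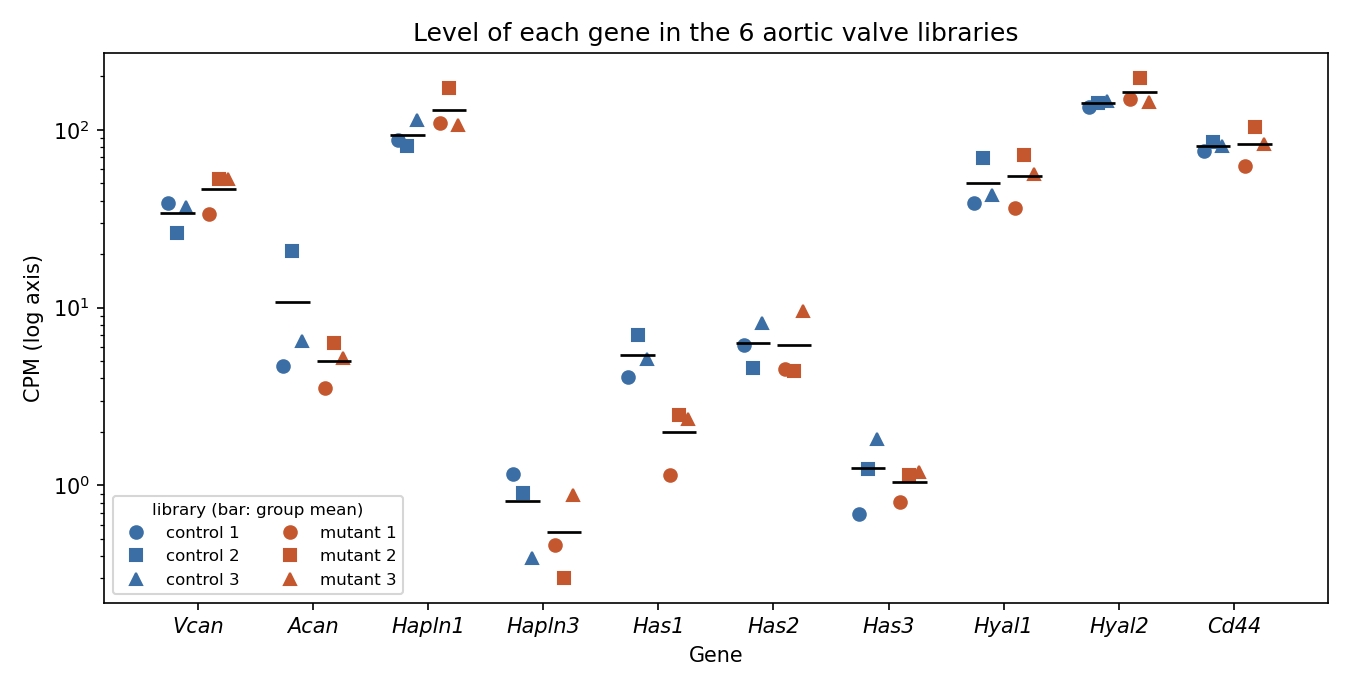
CPM of each gene on a log axis in the 3 control (blue) and 3 mutant (orange) libraries, with the replicate number given by the symbol and the group mean by a bar. The Has1 points of the mutants lie below all those of the controls, control replicate 2 stands high for Acan, and the groups overlap for the other genes.

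Between mutants and controls, 0 of the 10 genes passed an adjusted p of 0.05 in the edgeR quasi-likelihood test, as did 0 of the 15354 genes tested (0%). In DESeq2, 26 of 15344 genes with an adjusted p were called (0.169%) and 0 of the 10. At an unadjusted p under 0.05, edgeR gave 1 of the 10, Has1, against 3.45% of all genes tested. The groups did not overlap in 1 of the 10, again Has1, which was lower in the mutants. Over all genes tested 4.83% were lower and 4.04% higher in every mutant than in every control. A share of 1 in 10 is too few genes to set apart from that background. By sign, 5 of the 10 had a positive and 5 a negative log2 fold change, with a median of 0.007 against 0.010 over all genes tested.

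Has1 makes hyaluronan and is usually the least active of the 3 synthases. It was read at 4.06, 7.05 and 5.17 CPM in control replicates 1, 2 and 3 (218, 357 and 238 counts), and at 1.14, 2.48 and 2.35 CPM in mutant replicates 1, 2 and 3 (59, 98 and 75 counts). Every mutant was below every control, and the highest mutant and the lowest control were still well apart. The group means were 5.43 ± 1.51 CPM for controls and 1.99 ± 0.74 CPM for mutants (SD, n = 3 each). This is a log2 fold change of -1.45 (standard error 0.38, 95% interval -2.35 to -0.55, edgeR), or 2.74-fold lower in the mutants. Its unadjusted p was 0.00661, which ranked 66 among the genes tested, and its adjusted p was 0.999 in edgeR and 0.0973 in DESeq2, the lowest over all alternatives, which reached up to 1. Leaving out each library in turn gave log2 fold changes from -1.65 to -1.17, and without control replicate 2 the value was -1.22 (standard error 0.41) with the groups still apart.

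Marker lists of other tissue varied across the same libraries, and their part in the Has1 difference was not tested. Smooth muscle markers, 7 of 7 detected in every library, summed to 6107, 13460 and 5936 CPM in control replicates 1, 2 and 3 and to 2272, 5622 and 6038 CPM in mutant replicates 1, 2 and 3, and 0 of the 7 had a positive log2 fold change. Like Has1, the sum was highest in control replicate 2 and lowest in mutant replicate 1, although as a sum the groups overlapped. Acta2 had the largest share of it. Of the 7 genes, 3 (Myh11, Tagln and Smtn) separated the groups as Has1 did, with all 3 mutants lowest. Over all genes tested this held for 4.83%, and these 3 were named after their values were seen. The groups overlapped for the others, and Myocd had 44.2 CPM in mutant replicate 1, above control replicates 1 and 3 (33.6 and 41.5 CPM). Myh11, the smooth muscle myosin, had 974, 2360 and 973 CPM in the controls and 325, 827 and 829 CPM in the mutants. Mesothelial markers, 4 of 4 detected in every library, summed to 88, 981 and 171 CPM in control replicates 1, 2 and 3 and to 114, 316 and 442 CPM in mutant replicates 1, 2 and 3. They were highest in control replicate 2, as Has1 was, and the groups overlapped for each of the 4 genes.

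Has2, the synthase required for the embryonic cardiac jelly, showed no such separation. It was read at 6.13, 4.58 and 8.17 CPM in the controls and 4.49, 4.42 and 9.59 CPM in the mutants, in the order of replicates 1 to 3. Mutant replicate 3 was the highest of all 6 libraries and mutant replicate 2 the lowest, so the groups overlapped fully. The log2 fold change was -0.03 (standard error 0.38), with a 95% interval of -0.92 to 0.86. It was -0.50 without mutant replicate 3, 0.20 without control replicate 3 and -0.21 without control replicate 2. Has3, which makes shorter chains, had 37 to 84 counts per library and levels of 0.69 to 1.82 CPM in the controls and 0.81 to 1.19 CPM in the mutants. Its log2 fold change was -0.26 (standard error 0.45, 95% interval -1.33 to 0.81), and it became 0.11 without control replicate 3 and stayed at -0.26 without control replicate 2.

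The make-up of the synthase transcripts can be read within each library, where the scaling between libraries plays no part. Has1 made up 36.6%, 55% and 34.1% of the summed Has1, Has2 and Has3 level per kilobase in control replicates 1, 2 and 3. In mutant replicates 1, 2 and 3 it made up 17.5%, 31% and 17.5%, below every control. Has2 was the larger part in 5 of 6 libraries, with 38.1% in control replicate 2 as the exception. The ratio of Has2 to Has1 was 1.61, 0.693 and 1.68 in the controls and 4.21, 1.9 and 4.35 in the mutants. The difference in mean log2 ratio was 1.40, for 1 of 6 ratios that were compared. With 3 libraries against 3 the exact permutation test cannot give a two-sided p below 0.1, which is the value this ratio reached (0.3 after adjustment over the 6 ratios). Without control replicate 2 the difference was 0.99.

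**Figure D2:**
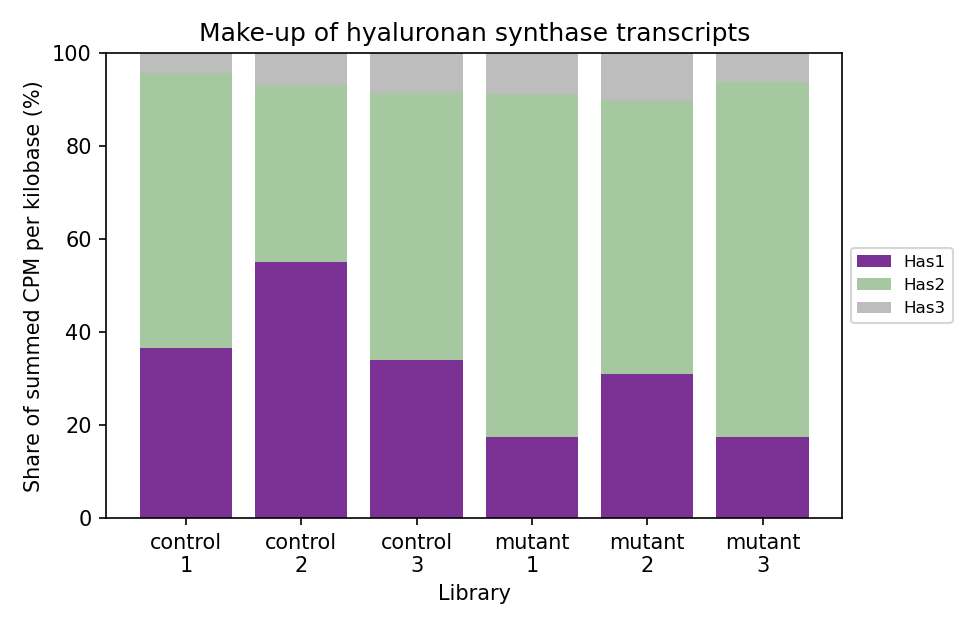
Share of the summed level per kilobase of the 3 hyaluronan synthases in each library, in percent. The Has1 part (purple) ranges from 34.1% to 55% in the controls and from 17.5% to 31% in the mutants.

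Versican is the main hyalectan of developing valves. It was read at 38.7, 26.3 and 36.9 CPM in control replicates 1, 2 and 3 and at 33.5, 53.2 and 52.7 CPM in mutant replicates 1, 2 and 3. Mutant replicates 2 and 3 lay above all controls, but mutant replicate 1 fell among them. The log2 fold change was 0.45 (standard error 0.22, 95% interval -0.08 to 0.98), with an adjusted p of 0.999 in edgeR. Leaving out control replicate 2 lowered it to 0.30, leaving out mutant replicate 1 raised it to 0.64, and it was positive in all 6 such fits.

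Hapln1, the link protein of cartilage and heart valves and the chromosomal neighbour of Vcan, had a similar difference. Its level was 88.1, 80.7 and 113 CPM in the controls and 109, 173 and 107 CPM in the mutants, in the order of replicates. Mutant replicate 2 stood out as the highest, and control replicate 3 lay above the other 2 mutants. The log2 fold change was 0.47 (standard error 0.22, 95% interval -0.05 to 1.00, adjusted p = 0.999 in edgeR), and it was 0.21 without mutant replicate 2 and 0.38 without control replicate 2. The within-library ratio of Hapln1 to Vcan per kilobase was 5.58 to 7.51 in the controls and 4.99 to 8.01 in the mutants. The mean log2 ratio differed by 0.01 between the groups (exact permutation test, two-sided p = 1), and its sign turned when control replicate 1 (-0.13), mutant replicate 1 (-0.11) or mutant replicate 2 (-0.10) was left out. Over the 6 libraries, log2 CPM of Vcan and Hapln1 had a Pearson correlation of 0.71, which is given as a description of libraries that also share their tissue make-up. Macrophage markers (6 of 6 detected) summed to more in every mutant, at 697 to 762 CPM against 551 to 630 CPM in the controls. The groups were apart for 3 of the 6 (Cd68, C1qa and C1qb), all higher in the mutants, against 4.04% of all genes tested. No other marker list had sums that separated the groups. Mutant replicate 1 had 697 CPM of these markers, but its Vcan (33.5 CPM) lay below control replicates 1 and 3. Vcan in mutant replicates 2 and 3 lay above all controls. The part of macrophage markers in the differences of Vcan and Hapln1 was not tested.

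Aggrecan, the large proteoglycan of cartilage, was read at 4.7, 20.8 and 6.47 CPM in control replicates 1, 2 and 3 and at 3.53, 6.29 and 5.24 CPM in mutant replicates 1, 2 and 3. Control replicate 2 alone was high, and the other 5 libraries overlapped. The log2 fold change of -1.09 (standard error 0.57, 95% interval -2.44 to 0.26) became -0.15 (standard error 0.33) without that library. Control replicate 2 was also the library highest in smooth muscle and mesothelial markers, whose part in the Acan value was not tested. Cartilage markers differed among themselves across the libraries. The 8 of them summed to 154 CPM in control replicate 2 and 176 to 385 CPM in the other libraries, but most of that sum was Comp, which tendon also makes. Lect1, a cartilage matrix gene, was highest in control replicate 2 at 8.08 CPM, against 0.708 to 5.96 CPM in the others. Col9a1 and Col11a2, collagens of cartilage, were lowest there, at 1.98 CPM against 3.67 to 9.27 CPM and at 13.1 CPM against 15.5 to 32.8 CPM. Col2a1, the main cartilage collagen, had 126, 1 and 11 counts in control replicates 1, 2 and 3 and 0, 48 and 50 counts in mutant replicates 1, 2 and 3. Col10a1 had 14, 13 and 0 counts in the controls and 0 in all 3 mutants, and Matn1 had at most 1 count in any library. The part of these markers in the Acan value was not tested either. In the shallowest library, the limit for a gene with 0 counts was 0.0931 CPM, for counting error only. The ratio of Vcan to Acan per kilobase was 4.25, 0.654 and 2.94 in the controls and 4.9, 4.37 and 5.2 in the mutants, so that all mutants lay above all controls (two-sided exact permutation p = 0.1, 0.3 after adjustment over the 6 ratios). The difference in log2 ratio was 1.25, and 0.44 without control replicate 2.

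Hapln3, a link protein of wider tissue distribution and the neighbour of Acan, was near the limit of detection with 12 to 62 counts per library. Its levels were 1.16, 0.909 and 0.391 CPM in the controls and 0.463, 0.303 and 0.878 CPM in the mutants. Both groups covered most of the same range, and the log2 fold change of -0.59 was as large as its standard error of 0.59. This fold change was -0.51 without control replicate 2, -0.26 without control replicate 1 and -1.09 without mutant replicate 3. Acan and Hapln3 had a Pearson correlation of 0.22 over the 6 libraries, in which control replicate 2 carries much of the variation of Acan. Their ratio per kilobase varied from 0.0929 to 0.523 in the controls and from 0.102 to 0.356 in the mutants. The difference in mean log2 ratio was 0.24, and -0.26 without control replicate 2.

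Of the hyaluronidases, Hyal2 is anchored at the cell surface and cuts long hyaluronan into intermediate pieces, and Hyal1 degrades those pieces in the lysosome. Hyal2 was the steadiest of the 10 genes in the controls, at 135, 141 and 146 CPM, and was read at 149, 196 and 143 CPM in the mutants. Mutant replicate 2 stood above the rest and mutant replicate 3 lay within the controls. Hyal2 differed by 0.21 on the log2 scale (standard error 0.14, 95% interval -0.12 to 0.54), by 0.06 without mutant replicate 2 and by 0.22 without control replicate 2. Hyal1 was read at 39, 69.2 and 43.2 CPM in the controls and 36.4, 72.3 and 56.2 CPM in the mutants. Its 2 highest libraries were control replicate 2 and mutant replicate 2, and mutants differed from controls by 0.12 on the log2 scale (standard error 0.30, 95% interval -0.59 to 0.84), a value that became -0.13 when mutant replicate 2 was left out and 0.42 when control replicate 2 was. Hyal2 gave 70.1% to 79.9% of the summed Hyal1 and Hyal2 level per kilobase in the controls and 74.5% to 82.5% in the mutants. The mean log2 ratio of Hyal1 to Hyal2 differed by -0.08, and by 0.16 without control replicate 2. The summed synthases came to 0.0463 to 0.0603 of the summed hyaluronidases per kilobase in the controls and to 0.0225 to 0.0509 in the mutants. These ranges overlapped through mutant replicate 3 (exact permutation test, two-sided p = 0.3, 0.6 after adjustment).

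Cd44, which anchors hyaluronan at the surface of interstitial cells and leukocytes, was read at 76.3, 85.4 and 81.4 CPM in the controls and 62.8, 104 and 83.8 CPM in the mutants. The mutants lay on both sides of the controls and were more widely spread, with an SD of 20.8 CPM against 4.57 CPM. The log2 fold change was 0.05 (standard error 0.18, 95% interval -0.38 to 0.47), and it was -0.15 without mutant replicate 2 and 0.09 without control replicate 2. Cd44 and Hyal1 had a Pearson correlation of 0.86 over the 6 libraries, and Hapln1 and Hyal2 one of 0.93. These were the 2 highest of the 45 pairs, and mutant replicate 2 was the highest library for all 4 genes.

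**Figure D3:**
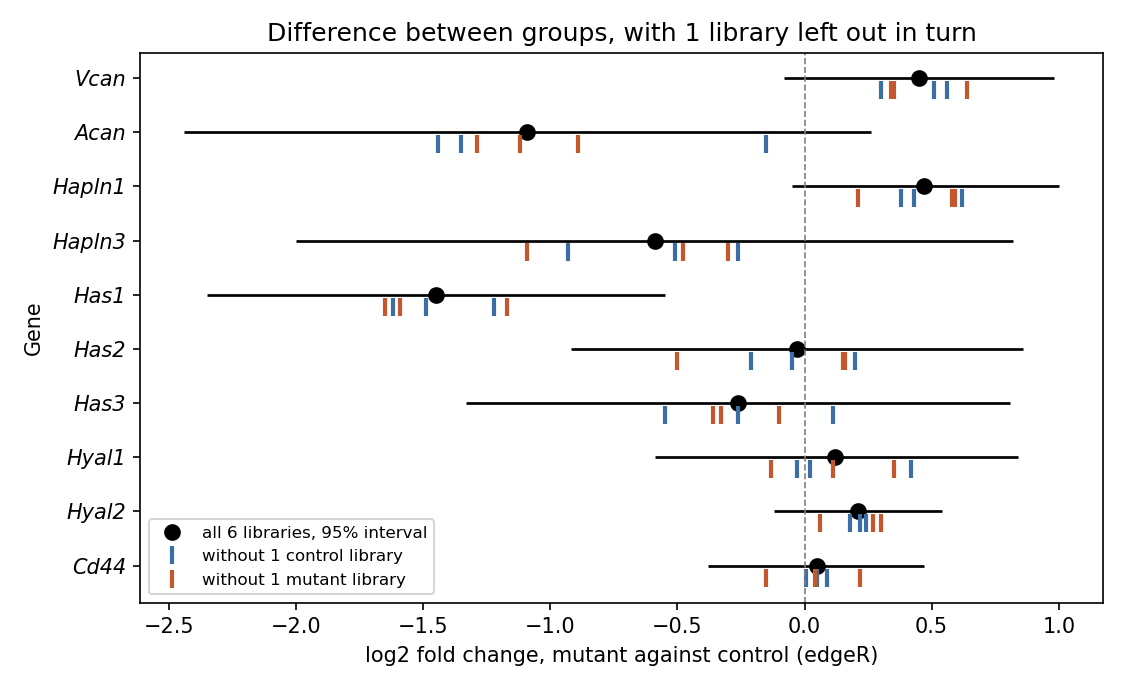
log2 fold change of each gene, mutants against controls, from edgeR (black points) with its 95% interval (lines), and the values when 1 control (blue ticks) or 1 mutant library (orange ticks) was left out. The interval of Has1, -2.35 to -0.55, is the only one that does not reach 0, and the tick of Acan nearest to 0 (-0.15) is the fit without control replicate 2.

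**Figure D4:**
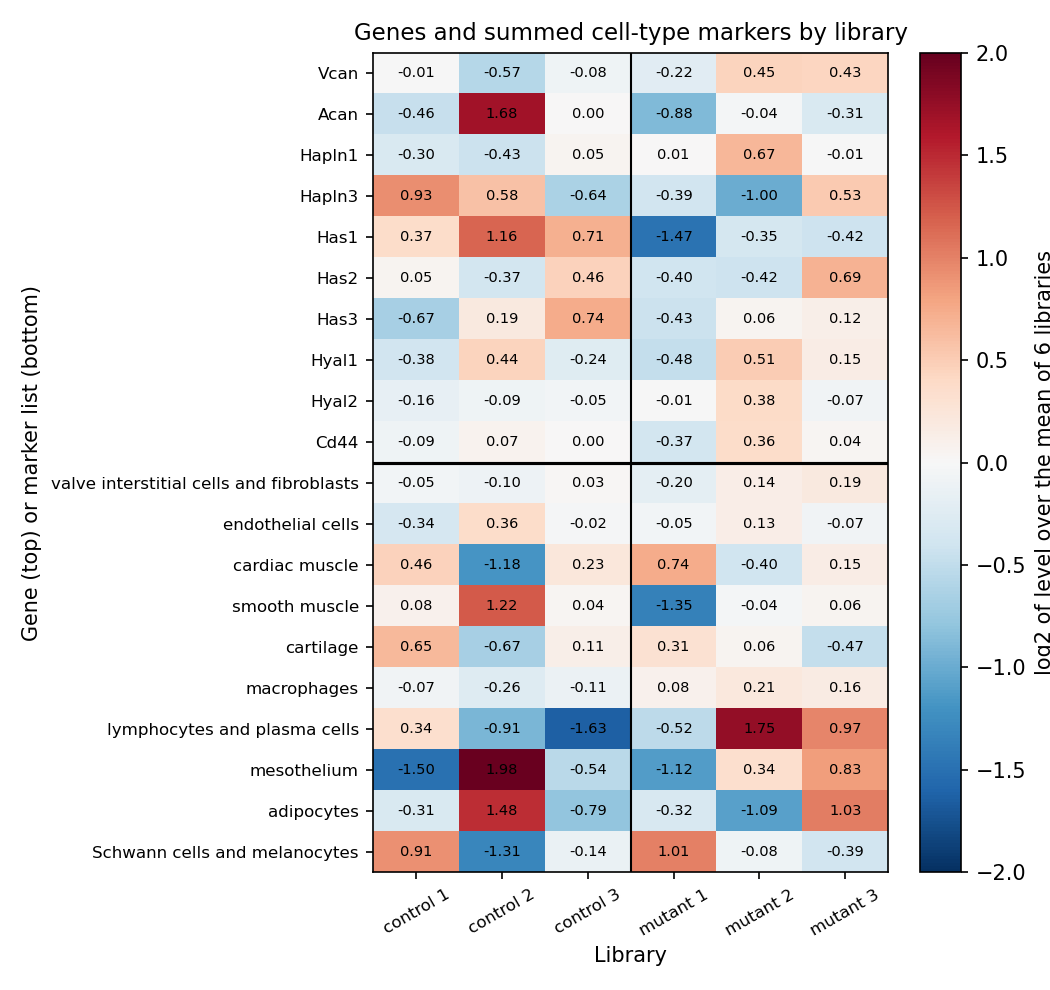
log2 of each gene's CPM (top) and of the summed CPM of each marker list (bottom) relative to its mean over the 6 libraries. Control replicate 2 is high for Acan (1.68), Has1 (1.16), smooth muscle (1.22) and mesothelium (1.98), and mutant replicate 1 is low for Has1 (-1.47) and smooth muscle (-1.35).

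The remaining genes of hyaluronan and hyalectan biology were read from 7 lists of 66 genes, of which 58 passed the minimum count. In edgeR 0 of the 58 had an adjusted p under 0.05, as in DESeq2, and 2 had an unadjusted p under 0.05, both of them lower in the mutants and both of the chondroitin sulfate list. The groups did not overlap in 2 genes that were higher and 3 that were lower in the mutants. These counts are near the shares over all genes tested (3.45% for the unadjusted p, 4.04% higher and 4.83% lower without overlap) and are no result about the lists. The median log2 fold change of the 58 was -0.032, against 0.010 over all genes tested.

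Chondroitin sulfate chains are built on the hyalectan core proteins by a series of Golgi enzymes, and 16 of the 21 genes for these had a negative log2 fold change (median -0.11), against 7341 of the 15354 genes tested. Xylt1, which adds the first xylose of each chain, averaged 2.03 ± 0.31 CPM in control and 1.11 ± 0.173 CPM in mutant libraries (SD, n = 3 each). The log2 fold change of Xylt1 was -0.87 (standard error 0.32), within -0.98 to -0.74 when libraries were left out in turn. Csgalnact1, which starts the chondroitin repeat, averaged 54 ± 6.01 and 40.9 ± 3.49 CPM (SD, n = 3 each), which is -0.40 on the log2 scale (standard error 0.12). Chsy3, a chain polymerase, was also lower in every mutant (log2 fold change -0.59, standard error 0.28, and -0.30 without control replicate 2), whereas Chst11, a chondroitin 4-sulfotransferase, was higher in every mutant (0.53, standard error 0.23). Chsy3 and Chst11 are named because they complete the 4 genes of this list whose groups did not overlap, and were chosen after their values were seen. Over all genes tested 4.04% were higher and 4.83% lower without overlap, and the list is too short for its count to be set apart from these. Each of the 4 had an adjusted p of 0.999 in edgeR.

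Of the genes for the supply of UDP-sugars, from which hyaluronan is polymerised, 7 of 9 had a positive log2 fold change, with a median of 0.067 and a range from -0.38 to 0.24. Slc35d1, a transporter of UDP-sugars into the secretory pathway, was higher in every mutant, at 15.6 ± 1.12 against 13.4 ± 1.47 CPM (SD, n = 3 each), or 0.22 on the log2 scale (standard error 0.14). The highest control and the lowest mutant for Slc35d1 both round to 14.7 CPM, and the difference was 0.14 without control replicate 3. Of the hyaluronan receptors, 5 of 7 had a positive sign, and their log2 fold changes ran only from -0.09 to 0.12. Those of the hyaluronan-binding proteins ran from -0.56 to 0.44 over 6 genes, with 3 of each sign (median -0.21). The other turnover genes had 5 of 6 negative signs (median -0.073), and the ADAMTS proteases that cleave hyalectans had 4 positive and 3 negative (median 0.010). Of the brain-type hyalectans and link proteins, Bcan and Hapln4 passed the minimum count, with log2 fold changes of -0.27 for Bcan (-0.59 without control replicate 2 and 0.10 without control replicate 1) and 0.56 for Hapln4 (0.22 without control replicate 2 and 1.20 without control replicate 3), while Ncan and Hapln2 had at most 14 and 11 counts in any library. In each of these lists other than the UDP-sugar and chondroitin sulfate lists, the groups overlapped for every gene tested.

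**Figure D5:**
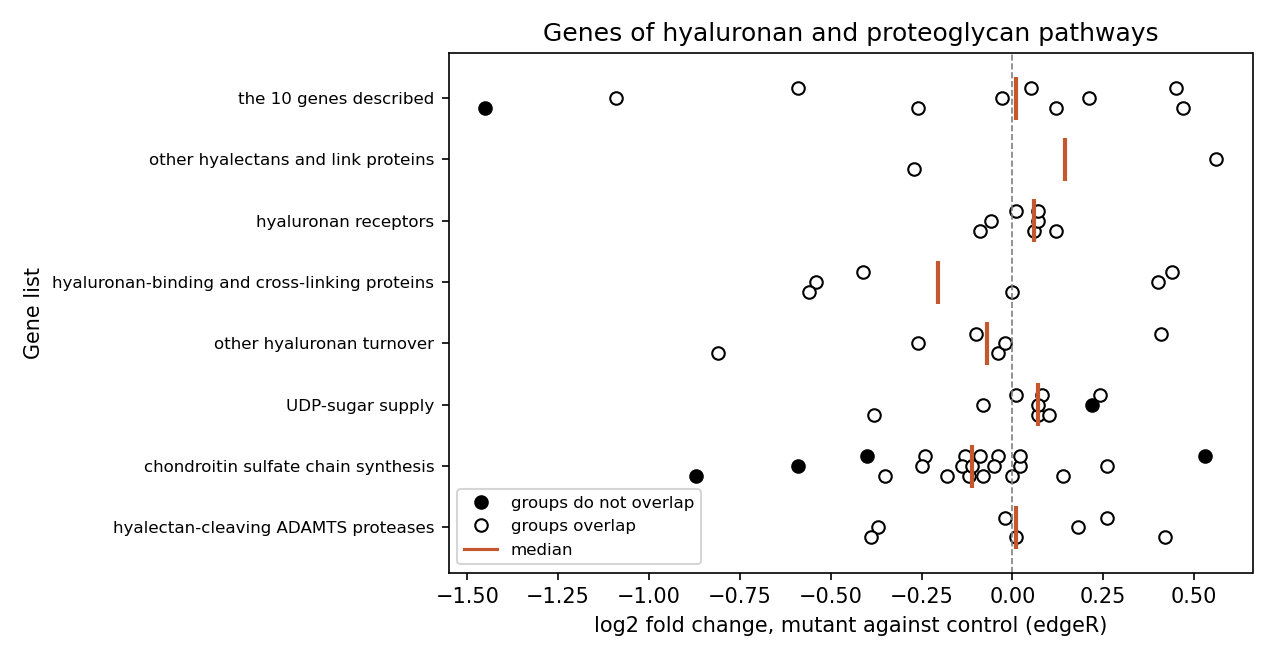
log2 fold change (edgeR, mutants against controls) of the genes described and of 7 lists of related genes, with 1 point per gene, filled where the groups did not overlap, and the median of each list as a bar. Among the 58 related genes 5 points are filled, 4 of them for chondroitin sulfate chain synthesis.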

How the data were processed

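RNA-Seq of aortic valve tissue from 3 control and 3 mutant libraries was used. The authors isolated total RNA with a column kit and aligned reads to mm10. The submitters' processing notes name TopHat2 2.0.13 and Bowtie2 2.2.1, and Cuffdiff 2.1.1 for quantification. The values deposited by the authors are estimated counts per gene, not scaled for library size, and the 1.66% to 1.87% of values per library with any fractional part (no tolerance) were rounded. Each column was matched to its group through the sample descriptions. Which annotation was used for counting is not given in the sources used here, and fragments counted at gene level do not tell splice forms apart.

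A gene was tested if 3 or more libraries had 10 or more counts for it, which 15354 genes did. Testing was done in R 4.3.3 with the quasi-likelihood test of edgeR 4.0.16 (TMM normalization, no covariates, two-sided). P-values were adjusted over these genes (Benjamini-Hochberg) and called under 0.05. The biological coefficient of variation was 0.278. The study used Cuffdiff, which needs the aligned reads. Each standard error is the log2 fold change divided by the root of F, and the 95% intervals use the degrees of freedom of the fit. CPM values use the TMM factors. Levels per kilobase use the merged exon length in GENCODE M21 (GRCm38), to which 98.0% of the 23107 listed genes were matched, 10 of 10 for the genes described here. Ratios between genes were formed within each library and compared by exact permutation tests. The pipeline was tested on simulated data, which does not show how the tests perform on these libraries.

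The 10 genes, the 7 pathway lists and the 10 marker lists were chosen with earlier results of these data known. All 10 genes are named, and in each pathway list the 2 genes with the smallest p among those whose groups do not overlap. For Vcan, Acan, Hapln1, Has2 and Cd44, the 3 most correlated genes with a mean of at least 100 counts are named. The rest of the 10 genes, Has1, Hyal1 and Hyal2 among them, were not searched in this way. Alternatives were DESeq2 1.42.0, limma-voom (limma 3.58.1) with and without sample quality weights, no low-count filter, upper-quartile normalization, a mean of at least 100 counts, a block for replicate number, the p-value without adjustment, and leaving out each library in turn. For the ratios, 1 count was added to both genes. Intervals and limits for counts of 0 cover counting error or the spread between these libraries only.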

Additional observations from a re-analysis of the deposited data

How the results depend on the processing

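Over 128 refits of the log2 fold changes of the 10 genes, 121 kept their sign and all stayed above an adjusted p of 0.05. Hapln3 and Has3 had no value under the filter of a mean of 100 counts. The 7 that changed sign were all fits that left out 1 library, in which Has2 ran from -0.50 to 0.20, Has3 from -0.55 to 0.11, Hyal1 from -0.13 to 0.42 and Cd44 from -0.15 to 0.22. Among the ratios, leaving out 1 library turned the sign of Hapln1 to Vcan (-0.13 to 0.23), Hapln3 to Acan (-0.26 to 0.99) and Hyal1 to Hyal2 (-0.22 to 0.16), and adding 1 count turned none. The number of genes called over all genes tested was 0 in edgeR, limma-voom and every other refit except DESeq2, which called 26, and 529 had an unadjusted p under 0.05 in edgeR. The number called was 0 of the 10 genes and 0 of the related genes in all of these refits with an adjusted p, and with an unadjusted p it was 1 and 2.

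Acan had a log2 fold change of -1.09, against -0.15 without control replicate 2, -0.43 in limma-voom with sample quality weights and -0.85 in limma-voom without them. With the replicate block the log2 fold change of Has1 was -1.49 and that of Acan -0.82, and 0 genes were called. Libraries with the same replicate number deviated from their group means with correlations of 0.29, 0.08 and 0.03, and control replicate 2 correlated best with mutant replicate 3 (0.20), so the numbers were not taken to pair the libraries. Depth limits Hapln3 and Has3, with 12 to 84 counts per library.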

Other observations

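The genes whose log2 CPM followed Vcan, Acan, Hapln1, Has2 and Cd44 most closely over the 6 libraries were searched among 12633 others with a mean of at least 100 counts. With so few libraries and so many genes, very high correlations arise for any gene, and the values are descriptions of libraries that share their tissue make-up. For Vcan they were Tmem60 (Pearson r = 0.987), Trem2 (0.986), a receptor of macrophages, and Gabarapl2 (0.977), and for Hapln1 they were Pik3ap1 (0.985), Dusp22 (0.980) and Plat (0.980), which encodes tissue plasminogen activator. For Acan they were Gdap2 (0.996), Traf7 (0.995) and Smpd3 (0.990). In all, 500 genes had a correlation over 0.9 with Acan, whose variation is largely its high value in control replicate 2, against 76 with Vcan and 86 with Hapln1. Has2 was followed by Wdr8 (0.995), 3110021N24Rik (0.983) and Hexdc (0.982), and Cd44 by Tead2 (0.988), Mbip (0.987) and Vim (0.983), an intermediate filament gene of mesenchymal cells.

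The sums of the other marker lists gave overlapping groups. Interstitial cell and fibroblast markers summed to 11562 to 12690 CPM in the controls and 10848 to 14136 in the mutants, endothelial markers to 1418 to 2309 and 1714 to 1963, and Schwann cell and melanocyte markers to 31.5 to 148 and 60.0 to 158. Adipocyte markers summed to 163 to 964 CPM over the 6 libraries, with control replicate 2 the highest and mutant replicate 2 the lowest. Lymphocyte and plasma cell markers summed to 11.3, 4.72 and 2.87 CPM in control replicates 1, 2 and 3 and to 6.23, 30 and 17.4 CPM in mutant replicates 1, 2 and 3. Of these 5 genes, Igj (log2 fold change 3.36) and Cd3e (1.72) were higher in every mutant than in every control, and were chosen after their values were seen. For Cd3e this was nearly a tie between mutant replicate 1 (0.617 CPM, 32 counts) and control replicate 2 (0.612 CPM, 31 counts).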
